A study of Mus musculus with 12 samples.

Results

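Hox genes encode homeodomain transcription factors that tell cells where along the body axis they lie. In mammals they sit in clusters named HoxA to HoxD, and each gene carries a paralog number that follows its place in the cluster, low numbers at the anterior (3′) end and high numbers at the posterior (5′) end. Cells tend to keep the Hox set of the place they came from, with silent genes held by Polycomb proteins and active genes maintained by Trithorax proteins, and fat depots of different body regions differ in their Hox genes. The members were all genes named Hoxa, Hoxb, Hoxc or Hoxd plus a number that were measured by a probe set with a single gene symbol, and the probe set with the highest mean signal stood for each gene. This gave 33 Hox genes among the 18193 genes named on the array, 9 of HoxA, 9 of HoxB, 7 of HoxC and 8 of HoxD.

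RNA of 2 mouse lines of fat cell precursors was measured on 12 arrays, 3 per group. The white line was 3T3-L1, derived from embryo fibroblasts, taken undifferentiated at day 0 and as adipocytes at day 10, and the other was a brown fat cell line taken at day 0 and day 8. Differentiation of both lines began with 3 days of dexamethasone at 1 µM and IBMX at 0.5 mM. White cells also received insulin at 1 µg/mL in those days and for 2 more. Brown cells also received indomethacin at 125 µM, and T3 at 1 nM and insulin at 20 nM that were kept on to day 8. Serum was named fetal calf serum for 3T3-L1 and FBS for the brown line, names that do not show a difference in serum. Each type of fat is 1 line, so fat type, line and its culture cannot be told apart in any difference between white and brown. Between the adipocytes the mix and the harvest day differed too. The body region that either line came from is not given in the sources used here.

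Replicate arrays correlated at 0.978 to 0.982 over all probe sets (Pearson, log2 scale) and arrays of different groups at 0.885 to 0.935. Whether the 3 arrays of a group came from separate cultures is not stated, so p-values measure the spread between arrays, which may be technical. Adiponectin, Adipoq, was at 31.9 ± 16.4 (SD, n = 3 arrays) in white preadipocytes but already at 18695 ± 2319 in brown preadipocytes. All 6 adipocyte markers tested were higher in brown than in white preadipocytes at an adjusted p under 0.05 in the limma fit below (31.3% of all genes were), with a median log2 difference of 3.24. Line and stage of differentiation thus cannot be told apart between the preadipocytes. Of 4 preadipocyte markers, 3 were lower in brown than in white adipocytes in that fit and 1 was not called. Their summed signals were 4076 to 4651 in white and 179 to 215 in brown adipocytes. In the preadipocytes they were 10589 to 12421 and 6396 to 7056. The part of such a difference between the adipocytes in the Hox results was not tested. Ucp1, the uncoupling protein of brown fat, was above the detection level in brown adipocytes alone (382 ± 74.5). Of 7 brown fat markers, 6 were above that level in brown adipocytes and 4 in white adipocytes, where Cox8b was at 5065 ± 649 against 3685 ± 594 in the brown. None of 4 endothelial markers was above the level in any group. Of 4 macrophage markers 1 to 3 were, Csf1r in every group, with summed signals of 202 to 279 over all arrays. Of 3 neural markers Map2 was in every group, at 121 ± 15.3 in white adipocytes and between 554 and 673 in the other groups, and Sox10 in brown adipocytes. Their part in the results was not tested. The ratio of the 3′ to the 5′ control probe sets of Actb, a sign of RNA length, was 1.40 ± 0.0554 and 1.49 ± 0.0626 in white and brown preadipocytes and 2.25 ± 0.151 and 2.42 ± 0.0478 in the adipocytes. It was higher after differentiation in both lines (exact permutation p = 0.1, two-sided, the smallest that 3 against 3 arrays allow). The same ratio for Gapdh was 0.861 ± 0.0342 before and 0.828 ± 0.00689 after white differentiation (exact p = 0.1) and 0.775 ± 0.0296 before and 0.814 ± 0.0189 after brown differentiation (exact p = 0.2). Between the lines the exact permutation p for Actb was 0.2 in preadipocytes and 0.1 in adipocytes, and for Gapdh 0.1 and 0.4. The part of RNA length in the differentiation results and in the line differences was not tested. In bulk RNA, fewer cells expressing a gene and less RNA per cell cannot be told apart.

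Promoter windows of 3 genes of the clusters that differed most between the lines are shown first, because their genes carry the main contrast, Hoxc4 being bright in the brown line alone and Hoxd8 and Hoxd9 in the white line alone. Each is 300 bases, from 250 before to 50 after the annotated start, on the plus strand of GRCm38.p6 as given by RefSeq, for Hoxc4 at chr15:103034145-103034444, Hoxd8 at chr2:74704365-74704664 and Hoxd9 at chr2:74697513-74697812. The Hoxc4 start used lies inside the annotated gene, downstream of its outermost start. Capitals mark CCAAT or its reverse complement, the core promoter motif bound by NF-Y.
Hoxc4: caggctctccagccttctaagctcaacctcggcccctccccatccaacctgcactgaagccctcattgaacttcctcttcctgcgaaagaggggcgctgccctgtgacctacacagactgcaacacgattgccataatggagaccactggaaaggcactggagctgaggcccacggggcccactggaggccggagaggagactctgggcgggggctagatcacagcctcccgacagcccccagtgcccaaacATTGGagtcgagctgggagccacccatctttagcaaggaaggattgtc
Hoxd8: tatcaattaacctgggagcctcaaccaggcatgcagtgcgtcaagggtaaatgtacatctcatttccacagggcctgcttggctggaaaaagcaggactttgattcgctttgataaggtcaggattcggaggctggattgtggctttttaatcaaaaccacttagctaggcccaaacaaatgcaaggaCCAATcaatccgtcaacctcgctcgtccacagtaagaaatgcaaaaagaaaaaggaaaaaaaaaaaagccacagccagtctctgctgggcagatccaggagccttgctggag
Hoxd9: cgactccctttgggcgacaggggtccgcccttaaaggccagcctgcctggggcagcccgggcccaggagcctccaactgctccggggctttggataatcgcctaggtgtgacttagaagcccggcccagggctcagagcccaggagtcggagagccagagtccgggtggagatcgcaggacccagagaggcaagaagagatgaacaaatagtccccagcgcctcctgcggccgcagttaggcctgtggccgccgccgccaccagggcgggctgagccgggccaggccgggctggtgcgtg
RefSeq windows were at hand for 19 of the 33 Hox genes, 21 windows in all. On both strands, CCAAT was in 12 of the 21 Hox windows against 37.4% of the 32851 windows of all genes. TATAAA was in 2 of 21 (13.6% of all windows), the homeodomain core TAATTA in 2, both of Hoxd11 (5.29% of all), and the Hox and Pbx composite TGATTNAT in 2, of Hoxa2 and Hoxd11 (3.22% of all). Neither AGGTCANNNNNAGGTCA, a retinoic acid element (0.00913% of all), nor GAGAGAGA (3.93% of all) was in a Hox window. The median number of CpG in a window was 15 for the Hox genes and 7 for all genes. None of these motifs separates the Hoxc4 window from the Hoxd8 window, both of which hold CCAAT once. The Hoxd9 window holds none of the motifs, so CCAAT differs between the windows of Hoxd8 and Hoxd9 and between those of Hoxc4 and Hoxd9.

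Signals were on the arrays' linear scale. A gene was counted as above the detection level in a group when its signal exceeded the array's 40th percentile, 32.9 to 41.2, on all 3 arrays. Of the 33 Hox genes, 21 were above it in some group and 8 in all 4 groups: Hoxa2, Hoxa3, Hoxa4, Hoxa5, Hoxa7, Hoxb2, Hoxb3 and Hoxb4. The other 12 were above it in no group, among them every measured gene of paralog number 11 or 12 and Hoxb1 and Hoxd1. The number above the level was 14 in white preadipocytes, 12 in white adipocytes, 18 in brown preadipocytes and 15 in brown adipocytes, and 10, 10, 13 and 13 with the level at the 60th percentile.

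The lines differed by cluster. HoxC had 7 measured genes, of which all 7 were above the level in brown preadipocytes and 4 in brown adipocytes, against 2 and 1 in the white line. HoxD had 8, of which 3 were above it in white preadipocytes and 3 in white adipocytes, against 0 and 1 in the brown line. HoxA (5, 5, 6 and 6 of 9 in white preadipocytes, white adipocytes, brown preadipocytes and brown adipocytes) and HoxB (4, 3, 5 and 4 of 9) gave counts within 1 of each other in the lines at each stage. By paralog number, the 12 measured genes numbered 4 to 8 included 6 above the level in white preadipocytes and 10 in brown preadipocytes. The 7 genes numbered 1 to 3 included 5 and 4, and the 14 numbered 9 to 13 included 3 and 4.

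**Figure D1:**
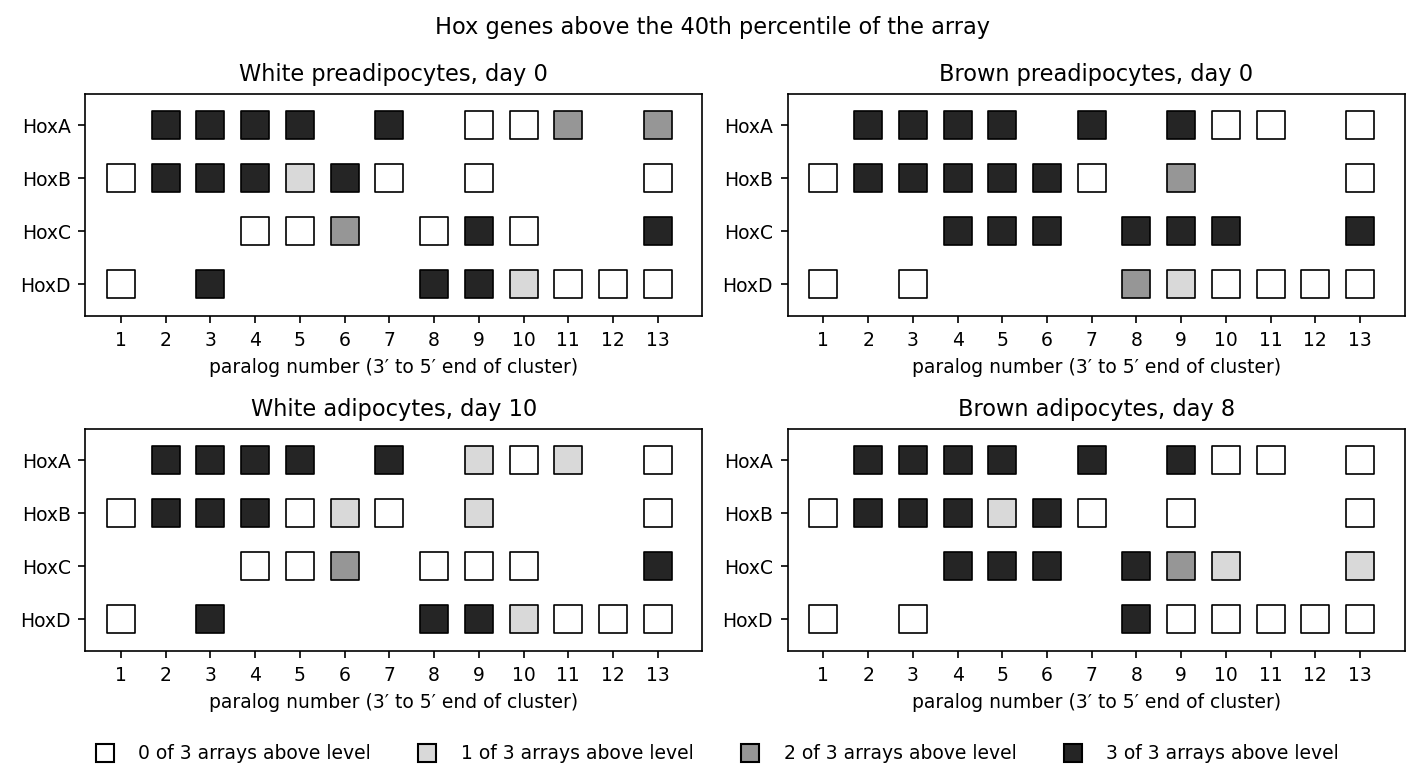
Each square is a measured Hox gene, placed by cluster (rows) and paralog number (columns), in 1 panel per group, and its shade gives how many of the 3 arrays had a signal above the array's 40th percentile. The HoxC row is dark in brown preadipocytes (7 of 7 genes on all 3 arrays) and mostly light in the white line, where the dark squares of HoxD are Hoxd3, Hoxd8 and Hoxd9.

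Differences were tested over all 13752 genes above the level on at least 3 of the 12 arrays, of which 23 were Hox genes (7 HoxA, 6 HoxB, 7 HoxC and 3 HoxD). Log2 differences are of signal plus 16, from limma with Benjamini-Hochberg adjustment over all genes tested, and a gene was called at an adjusted p under 0.05. Hox genes that passed the filter through 1 group or 1 line alone were selected for a difference, so counts over the 23 describe these genes and no others. Hoxc4, Hoxc5, Hoxc8 and Hoxd3 were above the level on every array of 1 line and on none of the other. That state fixes the sign of their line difference at both stages. Where a gene was above the level on no array of 1 group and on some array of the other, the fold is also given as "at least", with each array's value in the dim group taken no lower than its 40th percentile, unless that fold is under 1.

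Brown preadipocytes differed from white preadipocytes in 20 of the 23 Hox genes, where 55.1% of all genes were called. The 15 that were higher (31.3% of all genes) comprised 6 HoxC, 5 HoxB and 4 HoxA genes, and the 5 that were lower (23.8%) were Hoxc13, Hoxd3, Hoxd8, Hoxd9 and Hoxa7. Of the 20, 14 differed at least 2-fold (18.0% of all genes), and the arrays of the lines did not overlap for 21 of the 23 (62.0% of all genes). The median size of the log2 difference was 1.62 over the Hox genes and 0.42 over all genes. With the arrays scaled to equal medians, the median difference of all genes was -0.18 in place of 0.07, 35.5% in place of 56.8% of all called genes were higher, and 9 Hox genes were higher and 5 lower.

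HoxC genes 4 to 10, which pattern the neck and trunk, were the main group high in the brown line. Hoxc8, which in mouse white fat progenitors holds back brown fat genes and is targeted by miR-196a, gave 3779, 3811 and 4877 on the arrays of brown preadipocytes and 1313, 1450.2 and 1532 on those of brown adipocytes. Its 6 white arrays gave 0.687, 13.7 and 20.7 before and 7.75, 20.0 and 2.33 after differentiation, all under the detection level. The difference was 7.30 (SE 0.299, adjusted p = 2.58e-08) between the preadipocytes, at least 123-fold, and 5.85 (SE 0.299, adjusted p = 7.32e-08) between the adipocytes, at least 38.2-fold.

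Hoxc4 followed the same order, with 1439, 1621 and 1379 in brown preadipocytes and 340.4, 258 and 278 in brown adipocytes. In the white line it gave 9.13, 3.15 and 3.37 before and 9.25, 4.78 and 5.72 after differentiation, so the lines did not overlap at either stage. The difference between lines was 6.15 (SE 0.138, adjusted p = 5.19e-10) in preadipocytes, at least 44.2-fold, and 3.77 (SE 0.138, adjusted p = 6.74e-09) in adipocytes, at least 7.74-fold. Hoxc5, its neighbour in the cluster, gave 1057, 1068 and 1017 in brown preadipocytes, 309 to 319 in brown adipocytes and 2.51 to 15.8 on the white arrays. Its differences were 5.26 (adjusted p = 5.52e-10, at least 31.3-fold) and 4.05 (adjusted p = 1.72e-09, at least 8.40-fold). The mean of all 3 Hoxc5 probe sets gave 3.47 and 2.03.

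Hoxc6 gave 471, 541 and 413 in brown preadipocytes and 148, 180.1 and 271 in brown adipocytes. On the white arrays it gave 47.7, 47.8 and 8.89 before and 61.0, 46.2 and 13.6 after differentiation, close to the detection level and below every brown array. The differences were 3.39 (SE 0.430, adjusted p = 7.77e-05) and 2.01 (SE 0.430, adjusted p = 0.00221). Hoxc10, which in mouse holds back browning of white fat, was dim in both lines, with 124, 50.7 and 83.2 in brown preadipocytes, 9.10, 36.4 and 67.7 in brown adipocytes and 1.75 to 21.1 on the white arrays. It was higher in brown preadipocytes by 1.83 (adjusted p = 0.00423, at least 2.41-fold) and in brown adipocytes, where 1 of 3 arrays was above the level, by 1.18 (adjusted p = 0.036). The adipocyte call was lost without any one of white adipocyte replicates 1, 2 and 3 or brown adipocyte replicates 2 and 3 (adjusted p = 0.0534 to 0.134), and the value fell to 0.77 without brown adipocyte replicate 3.

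Hoxc9, a marker of white fat cells, differed least of the HoxC genes between the preadipocytes. It gave 149, 107 and 203 in white preadipocytes and 295, 355 and 308 in brown preadipocytes, a difference of 1.03 (SE 0.367, adjusted p = 0.0366). That call was lost when white preadipocyte replicate 1 or 2 or any one brown preadipocyte array was left out (adjusted p = 0.0654 to 0.124). After differentiation it gave 25.3, 16.4 and 14.8 in the white line and 143, 32.7 and 69.4 in the brown, a difference of 1.33 (adjusted p = 0.00948, at least 1.84-fold, with 2 of 3 brown arrays above the level).

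Hoxc13, the most posterior HoxC gene, needed for hair and nail formation, ran the other way. White preadipocytes gave 1127, 1163 and 1096, white adipocytes 96.4, 95.8 and 110.0, brown preadipocytes 88.6, 96.3 and 126, and brown adipocytes 4.14, 38.4 and 7.19. Uninduced white cells alone were bright, and white adipocytes overlapped brown preadipocytes. The difference of brown from white was -3.27 (SE 0.305, adjusted p = 8.47e-06) in preadipocytes and -1.99 (SE 0.305, adjusted p = 0.000236) in adipocytes. Hoxc13 and Hoxc10, next to each other among the measured HoxC genes, thus differed between the lines in opposite directions.

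**Figure D2:**
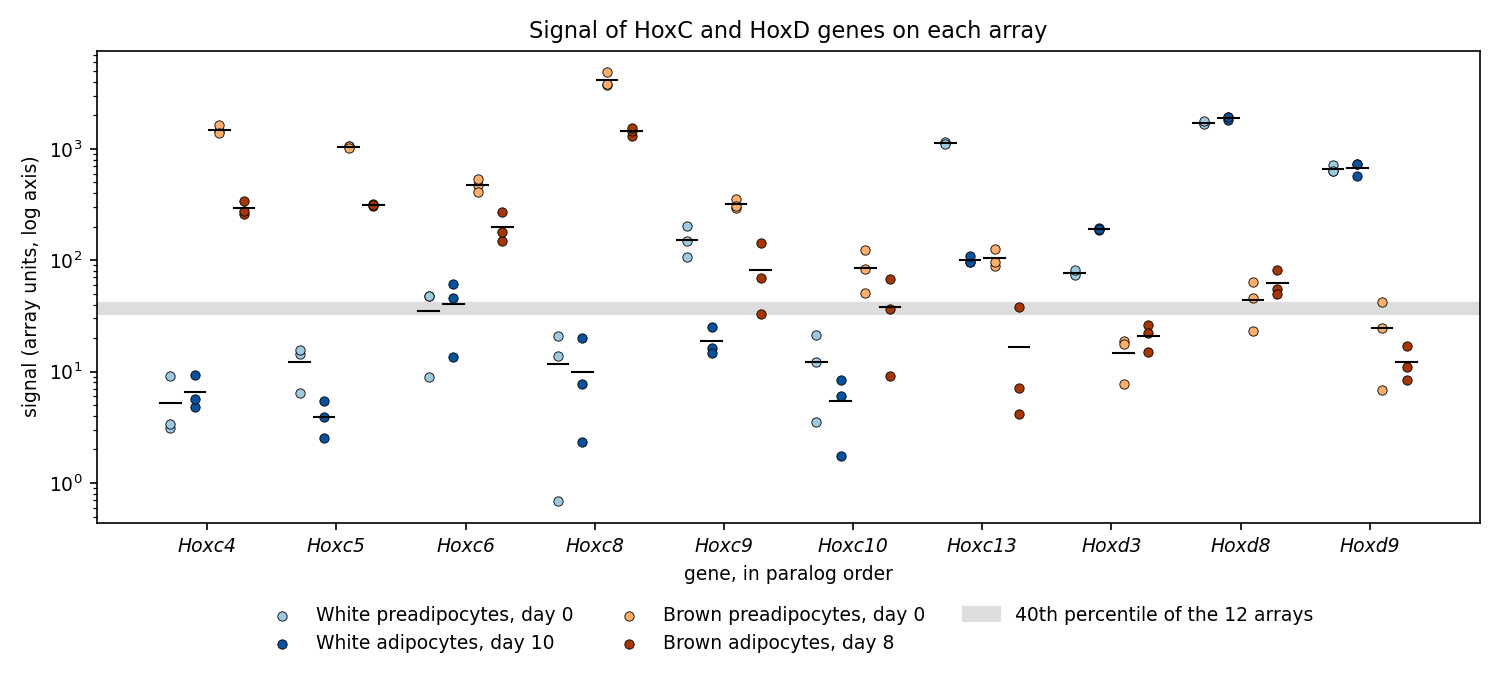
Points are the signals of single arrays on a log axis for the 10 HoxC and HoxD genes tested, colours are the 4 groups, bars are group means, and the grey band spans the 40th percentiles of the 12 arrays. Hoxc4, Hoxc5 and Hoxc8 lie above 250 in the brown line and under the band in the white line, and Hoxc13, Hoxd3, Hoxd8 and Hoxd9 are highest in white cells.

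HoxD genes were high in the white line. Hoxd8, a trunk gene, gave 1695, 1662 and 1780.4 in white preadipocytes and 1940.3, 1819 and 1924 in white adipocytes. Brown preadipocytes gave 45.9, 23.2 and 63.5 and brown adipocytes 55.2, 49.3 and 81.5, near the detection level. The difference was -4.90 (SE 0.227, adjusted p = 6.01e-08) in preadipocytes, where the geometric mean of the white signals was 42.0 times that of the brown, and -4.64 (SE 0.227, adjusted p = 5.40e-08) in adipocytes, 31.3 times.

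Hoxd9, which with its paralogs patterns the lumbar spine and the limb, gave 639, 711 and 626 in white preadipocytes and 726, 731 and 572 in white adipocytes. It gave 24.7, 42.4 and 6.88 in brown preadipocytes and 8.37, 11.0 and 17.1 in brown adipocytes. The differences were -4.15 (SE 0.280, adjusted p = 8.47e-07) and -4.62 (SE 0.280, adjusted p = 2.46e-07, at least 17.2-fold). Hoxd3, an anterior gene, was dimmer, with 77.0, 74.0 and 81.3 in white preadipocytes and 193, 187 and 193 in white adipocytes. Its 6 brown arrays gave 7.79 to 26.2, all under the level, and it was lower in the brown line by 1.62 (at least 1.97-fold) and 2.49 (at least 4.87-fold) on the log2 scale, with adjusted p = 7.79e-06 and 2.28e-07. The other 5 HoxD genes, Hoxd1, Hoxd10, Hoxd11, Hoxd12 and Hoxd13, were too dim to test.

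In HoxA, the posterior gene Hoxa9, a regulator of blood stem cells, separated the lines. White preadipocytes gave 9.34, 0.558 and 4.42, white adipocytes 25.6, 31.2 and 40.8, brown preadipocytes 139, 121 and 131, and brown adipocytes 389, 400.3 and 368. On this probe set the lines did not overlap at either stage, and of the white arrays 1 was above the detection level, after differentiation. Hoxa9 was higher in the brown line by 2.84 (SE 0.153, adjusted p = 1.71e-07, at least 3.90-fold) in preadipocytes and by 3.06 (SE 0.153, adjusted p = 6.22e-08) in adipocytes, and by 1.68 and 2.01 as the mean of both its probe sets. The other probe set alone gave 0.53 and 0.95. It was above the level on 3 of 3 white preadipocyte arrays (mean 56.7) and 2 of 3 white adipocyte arrays (mean 54.1), so Hoxa9 cannot be called off in the white line.

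Hoxa5, active in the lung, the upper trunk and fat tissue, gave 631, 528 and 535 in white preadipocytes and 1738, 1901 and 1854 in brown preadipocytes, a difference of 1.67 (SE 0.0897, adjusted p = 1.62e-07). In adipocytes it gave 546, 511 and 455 against 841, 817 and 884, a difference of 0.73 (adjusted p = 4.54e-05). The anterior genes differed less. Hoxa2, which shapes the second pharyngeal arch, was not called between the lines (0.07 and 0.06, adjusted p = 0.616 and 0.662, SE 0.110 each).

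Hoxa4 was higher in the brown line by 0.49 (adjusted p = 0.0224) and 0.80 (adjusted p = 0.00131). The first of these calls was lost without white preadipocyte replicate 2 or 3 or brown preadipocyte replicate 1 or 3 (adjusted p = 0.051 to 0.0775) and with equal medians (0.25, adjusted p = 0.204) or quantile normalization (0.24, adjusted p = 0.254). Hoxa7 was lower by 0.66 (adjusted p = 0.00834) and 0.52 on the log2 scale (adjusted p = 0.0243), the second call being lost without white adipocyte replicate 2 (-0.34, adjusted p = 0.0866) or brown adipocyte replicate 2 (-0.38, adjusted p = 0.0933).

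In HoxB, Hoxb6, a gene of the trunk and lung, differed most. It gave 51.8, 37.8 and 60.4 in white preadipocytes against 369.6, 455 and 652 in brown preadipocytes, and 25.3, 1.33 and 37.2 in white adipocytes against 144, 103 and 162 in brown adipocytes. The differences were 2.92 (SE 0.378, adjusted p = 9.00e-05) and 2.16 (SE 0.378, adjusted p = 0.000592), with no overlap of the lines at either stage. Hoxb5 gave 32.5, 21.3 and 46.4 against 102, 118 and 129 in preadipocytes, a difference of 1.45 (adjusted p = 0.00232), and 0.66 in adipocytes (adjusted p = 0.0872). Without brown adipocyte replicate 2 the latter was 0.97 (adjusted p = 0.0137).

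Hoxb2, Hoxb3 and Hoxb4, anterior genes active in the hindbrain and in blood progenitors, were higher in brown preadipocytes by 0.71, 0.67 and 0.49 (adjusted p = 0.0139, 0.00256 and 0.0113). With equal medians these values were 0.44, 0.40 and 0.24 and none was called (adjusted p = 0.0767, 0.0542 and 0.251). The Hoxb2 call was also lost without white preadipocyte replicate 3 or brown preadipocyte replicate 2 (adjusted p = 0.0533 and 0.0562). In adipocytes Hoxb3 was higher by 0.43 (adjusted p = 0.0248), a call lost without white adipocyte replicate 1 or brown adipocyte replicate 2 or 3 (adjusted p = 0.0725 to 0.0924), and Hoxb2 and Hoxb4 were not called (0.29 and 0.05).

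After differentiation 17 of the 23 Hox genes differed between the lines (59.6% of all genes were called), 11 higher in brown adipocytes (30.1%) and 6 lower (29.5%). With scaling to the hybridization controls, 60.6% in place of 50.5% of all called genes were higher there, and 11 Hox genes were higher and 5 lower. The arrays of the lines did not overlap for 16 of the 23 Hox genes (65.6% of all genes). All 17 had also been called in preadipocytes, 16 of them in the same direction, and preadipocyte and adipocyte arrays are separate samples. Over all genes, 5444 were called at both stages and 72.9% of those kept their direction. Across the 23 Hox genes the 2 differences correlated at r = 0.973, and across all 13752 genes at 0.404. These are descriptions across genes, which are not independent replicates and share the array scaling. The Hox values include genes above the level in 1 line alone, which fixes their direction at both stages. Those called before differentiation but not after were Hoxb2, Hoxb4 and Hoxb5, and those called at neither stage were Hoxa2, Hoxa11 and Hoxb9.

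The exception was Hoxa3, needed for the thymus and parathyroid. It gave 362, 351 and 388 in white and 552, 556 and 589 in brown preadipocytes, then 235, 267 and 291 in white and 153, 221 and 174 in brown adipocytes. Brown cells were higher by 0.60 before (adjusted p = 0.00174) and lower by 0.51 after differentiation on the log2 scale (adjusted p = 0.00422). The probe set used for Hoxa3 is of a less specific design, and another of its 4 probe sets gave 0.38 (adjusted p = 0.0464) and 0.14 (adjusted p = 0.428), so the change of sign was not seen on it. With equal medians the first difference was 0.33 (adjusted p = 0.0787).

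**Figure D3:**
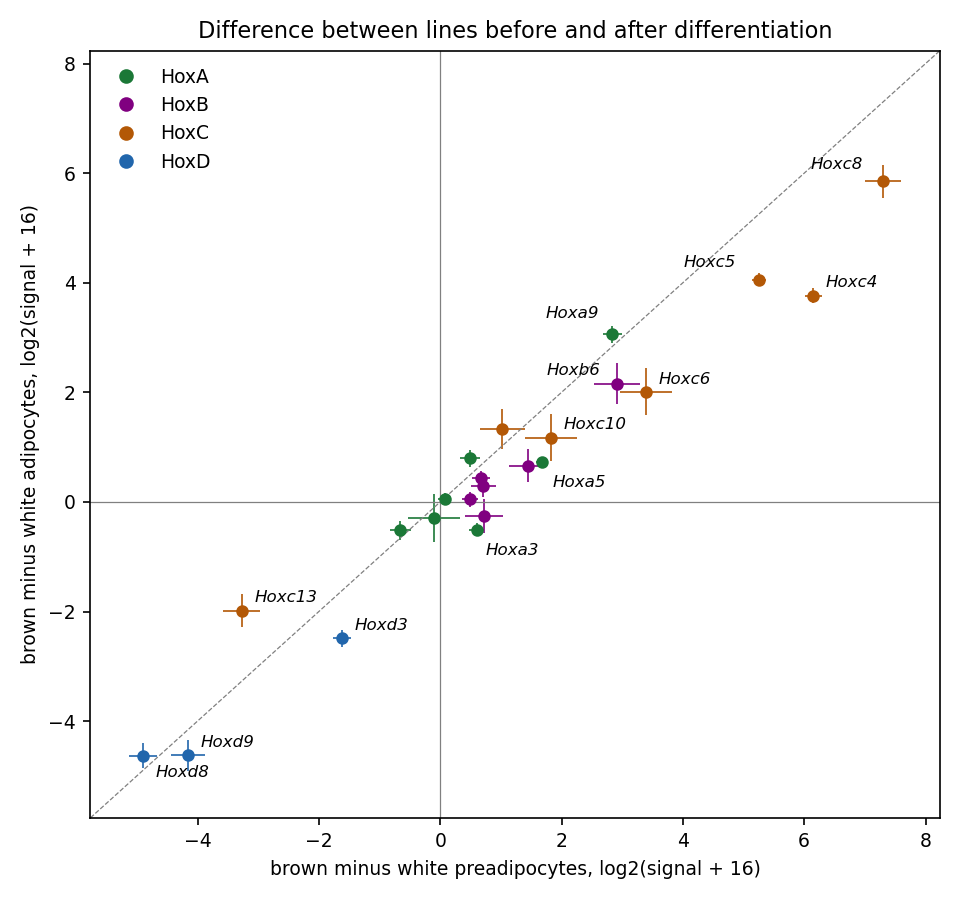
Points are the 23 Hox genes tested, the x axis gives the brown minus white log2 difference in preadipocytes and the y axis that in adipocytes, both as log2(signal + 16), with bars of 1 SE and a dashed line of equality. HoxC genes lie at the upper right and HoxD genes and Hoxc13 at the lower left, and Hoxa3 is the called gene that crosses 0.

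White differentiation changed 12 of the 23 Hox genes, a share below that of all genes (61.3% called), with 4 higher (30.1%) and 8 lower (31.2%). The median log2 change was -0.06 for the Hox genes and 0.02 for all genes, and 6 of the 12 reached 2-fold (25.8% of all genes did). The arrays before and after did not overlap for 13 of the 23 (66.1% of all genes). Brown differentiation changed 14 (58.7% of all genes), with 2 higher (27.2%) and 12 lower (31.6%), and 13 of the 14 reached 2-fold (22.5%). The arrays did not overlap for 15 (65.2%). The median change there was -1.10 for the Hox genes and -0.03 for all genes. Scaling to the hybridization controls shifted the median of all genes to -0.23 in the white and -0.22 in the brown line, against 0.02 and -0.03. The share of all called genes that rose was 34.3% in place of 49.1% in the white line and 31.9% in place of 46.2% in the brown. On that scaling 2 Hox genes rose and 9 fell in the white line, and 2 rose and 14 fell in the brown. HoxC held 6 of the 12 brown falls.

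The genes that changed in both lines numbered 10, each in the same direction in both. Hoxc13 fell by 3.30 in the white line (SE 0.305, adjusted p = 4.78e-06) and by 2.01 in the brown (SE 0.305, adjusted p = 0.000229). Hoxc9 fell by 2.25 (adjusted p = 0.000332, at least 3.95-fold) and by 1.94 (adjusted p = 0.00105). Hoxb3 gave 490.1, 433 and 491 before and 120.2, 173 and 159 after white differentiation, and 750.2, 706 and 823 before and 170.4, 237 and 218 after brown differentiation. It fell by 1.56 and by 1.80 on the log2 scale (adjusted p = 4.61e-06 and 1.95e-06), and its arrays did not overlap in either line. A dimmer Hoxb3 probe set gave 0.22 in the white line, and the mean of both fell by 0.67.

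Hoxa2 gave 442, 390.0 and 399 before and 185, 166 and 163 after white differentiation, and 408, 386 and 510.1 before and 188, 161 and 189 after brown differentiation. The lines overlapped at both stages, and the falls were of 1.19 and 1.20 (SE 0.110 each, adjusted p = 4.84e-06 and 5.58e-06). Hoxb5 fell by 0.99 and 1.78 (adjusted p = 0.0162 and 0.000542), the first between dim values above the level on 1 of 3 arrays before and 0 of 3 after, and Hoxb6 by 0.96 and 1.72 (adjusted p = 0.0494 and 0.00274). The white Hoxb5 call was lost without white preadipocyte replicate 3 (-0.81, adjusted p = 0.063). The white Hoxb6 call was lost without any one of 10 arrays, all but white adipocyte replicate 3 and brown preadipocyte replicate 3 (adjusted p = 0.0526 to 0.151), and was -0.48 without white adipocyte replicate 2.

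Hoxa9 and Hoxa4 were called higher after differentiation in both lines. Hoxa9 rose by 1.46 in the brown line (SE 0.153, adjusted p = 1.59e-05), and by 0.88 as the mean of both probe sets. Its white value of 1.23 (adjusted p = 4.50e-05) was one between dim values, above the level on 0 of 3 arrays before and 1 of 3 after, and the other probe set gave -0.12 there. Hoxa4 gave 83.0, 81.5 and 79.0 before and 94.6, 125 and 123 after white differentiation, and 134, 98.6 and 132 before and 227, 164 and 243 after brown differentiation. It rose by 0.72 in the brown line (adjusted p = 0.0027) and by 0.41 in the white (adjusted p = 0.0435). The white call was lost without any one of 7 arrays (white preadipocyte replicates 1, 2 and 3, white adipocyte replicates 2 and 3, brown preadipocyte replicate 3 and brown adipocyte replicate 1, adjusted p = 0.0503 to 0.126), and with scaling to the hybridization controls it was 0.17 (adjusted p = 0.430).

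The other 2 genes changed in both lines were Hoxa3 (-0.45 and -1.56, adjusted p = 0.00765 and 1.55e-06) and Hoxc5 (-0.48 and -1.69, adjusted p = 0.00492 and 7.91e-07). On the white arrays Hoxc5 lay under the detection level throughout, so its white change was one between dim values, and the mean of its probe sets gave -0.21 (adjusted p = 0.219). Called in the white line and not in the brown, Hoxd3 rose by 1.15 (SE 0.150, adjusted p = 6.49e-05) and Hoxb4 by 0.36 (adjusted p = 0.0412) with signals of 154, 156 and 149.8 before and 188, 189 and 231 after. Hoxd3 lay under the detection level on every brown array, so a brown change could not be seen. The lines were not shown to differ in the Hoxb4 change (-0.45, adjusted p = 0.0809), other than without brown preadipocyte replicate 1 (-0.58, adjusted p = 0.0168). The Hoxb4 call was lost without any one of white preadipocyte replicates 1 to 3, white adipocyte replicates 2 and 3, brown preadipocyte replicate 2 and brown adipocyte replicate 2 (adjusted p = 0.0517 to 0.143), and on scaling to the hybridization controls (0.11, adjusted p = 0.537).

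Called in the brown line and not in the white, Hoxc4 fell by 2.29 (SE 0.138, adjusted p = 2.50e-07), Hoxc8 by 1.52 (SE 0.299, adjusted p = 0.00137), Hoxc6 by 1.22 (SE 0.430, adjusted p = 0.0323) and Hoxa5 by 1.10 (SE 0.0897, adjusted p = 2.37e-06). In white cells Hoxc4 and Hoxc8 were under the detection level at both stages, and Hoxc6 was above it on 2 of 3 arrays at each. The Hoxc8 call was lost with a pseudocount of 1 (-1.53, adjusted p = 0.183). The Hoxc6 call was lost without any one brown preadipocyte array or brown adipocyte replicate 1 or 2 (adjusted p = 0.0512 to 0.102). It was also lost as the mean of its probe sets (-0.85, adjusted p = 0.0692), of which another gave 0.21, and with a pseudocount of 1 (-1.29, adjusted p = 0.138). The lines were not shown to differ in the Hoxc6 change (-1.38, adjusted p = 0.084), other than without white adipocyte replicate 3 (-1.79, adjusted p = 0.0219), with a pseudocount of 64 (-1.13, adjusted p = 0.00957) or with an intensity trend (-1.38, adjusted p = 0.0354). The fall of Hoxc10 by 1.02 was not called (adjusted p = 0.0626), but was without brown preadipocyte replicate 2 (-1.30, adjusted p = 0.0388) or brown adipocyte replicate 3 (-1.43, adjusted p = 0.014), with a pseudocount of 64 (-0.57, adjusted p = 0.0312) or with scaling to the hybridization controls (-1.19, adjusted p = 0.0336). Hoxd8 and Hoxd9, the bright HoxD genes of the white line, were not called there (0.14 and 0.03, SE 0.227 and 0.280, adjusted p = 0.614 and 0.934).

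**Figure D4:**
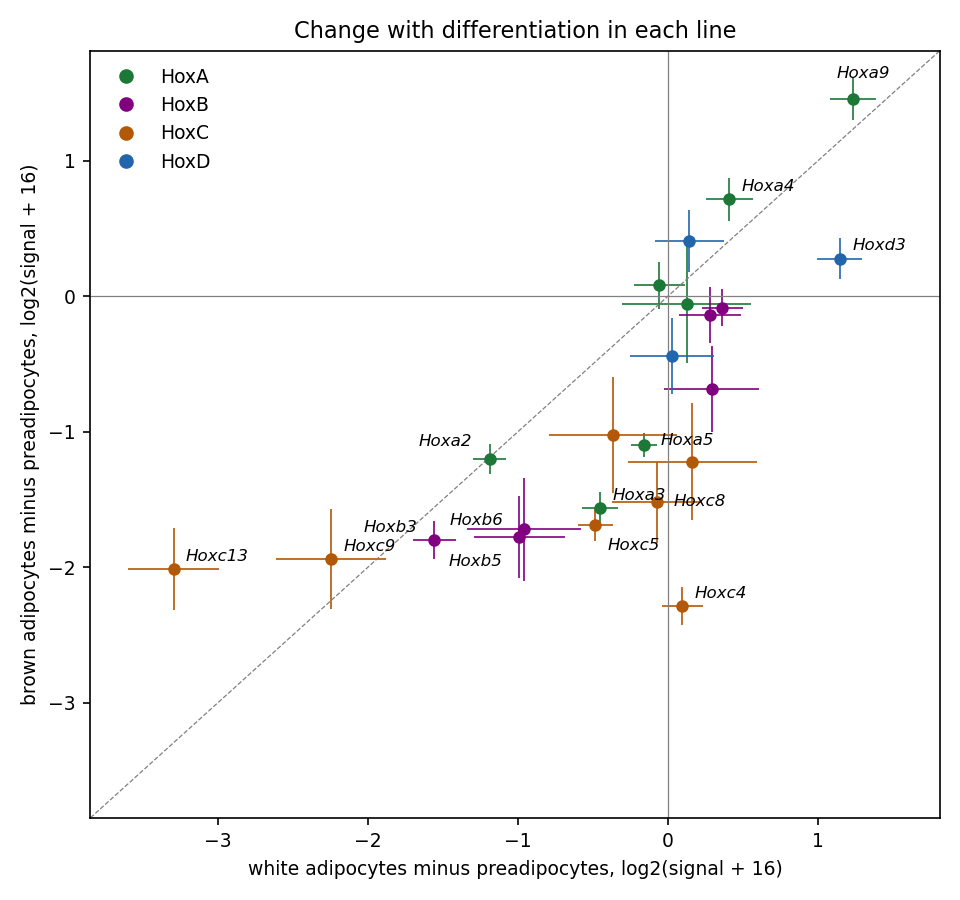
Points are the 23 Hox genes tested, with the log2 change of differentiation in the white line on the x axis and in the brown line on the y axis, as log2(signal + 16), bars of 1 SE and a dashed line of equality. Most HoxC genes lie below the line of equality near 0 on the x axis, Hoxc13 and Hoxc9 fell in both lines, and Hoxa9 and Hoxa4 lie above 0 on both axes.

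The difference between the lines in the differentiation change was called for 7 Hox genes (51.1% of all genes), 1 higher (23.6%) and 6 lower (27.5%) in the brown line, and 5 of the 7 by at least 2-fold (24.6%). The largest was Hoxc4 at -2.38 (SE 0.195, adjusted p = 4.16e-06), followed by Hoxc8 at -1.45 (SE 0.423, adjusted p = 0.0159), Hoxc5 at -1.20 (adjusted p = 0.000187), Hoxa3 at -1.11 (adjusted p = 0.00036), Hoxa5 at -0.94 (adjusted p = 0.000147) and Hoxd3 at -0.87 (adjusted p = 0.00606). Hoxc13 had a smaller fall in the brown line, by 1.28 (SE 0.431, adjusted p = 0.0301). Hoxc4, Hoxc5 and Hoxc8 were under the detection level in the white line, Hoxd3 in the brown line and Hoxc13 on 2 of 3 arrays of brown adipocytes. With a pseudocount of 1 the number called was 3. The calls of Hoxc5 (-0.37, adjusted p = 0.514), Hoxc8 (-1.59, adjusted p = 0.345), Hoxc13 (0.35, adjusted p = 0.767) and Hoxd3 (-0.75, adjusted p = 0.168) were lost on it.

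The Hoxc13 difference also lost its call without any one of white preadipocyte replicates 1 to 3, white adipocyte replicates 1 and 2 and brown preadipocyte replicates 1 and 2 (adjusted p = 0.05005 to 0.0661), and was 0.84 (adjusted p = 0.00367) without brown adipocyte replicate 2. For Hoxa3 and Hoxa5 it depended on the probe set: the other bright probe set of each gave -0.24 (adjusted p = 0.369) and -0.20 (adjusted p = 0.233). On that probe set Hoxa5 fell by 0.90 in the white line as well (adjusted p = 9.10e-06), against 0.16 on the one used here (adjusted p = 0.154).

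In all, 11 Hox genes had several probe sets. Among their other probe sets above the level, for genes called, 11 of 12 had the same direction in the preadipocyte comparison, 10 of 11 in the adipocyte comparison, 9 of 10 in brown and 4 of 8 in white differentiation. The second Hoxd8 probe set gave 848 and 1047 in the white groups and 30.5 and 6.23 in the brown. The mean of both Hoxd8 probe sets turned its difference in the differentiation change from 0.27 (not called) to -0.53 (adjusted p = 0.045).

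Genes around the clusters were compared to see how far the line differences reach, a comparison chosen after the Hox values were seen. It took the 3 nearest named genes on each side of a cluster and the other named genes inside it, with order taken from the GRCm38 gene table. Of 20 flanking genes tested, none differed at least 2-fold between the preadipocytes by a called difference, where 18.0% of all genes did, and 8 were called (55.1% of all genes), the largest size being 0.58 on the log2 scale. In adipocytes 12 were called (59.6%) and 2 of the 20 differed at least 2-fold (23.2%), Cbx1 beyond HoxB (1.09) and Hibadh beyond HoxA (-1.03). Evx2, which lies next to Hoxd13, gave -0.0025 and -0.06 and was not called (SE 0.357, adjusted p = 0.997 and 0.901). Its group means of 54.0 to 60.9 were near the detection level, so a flat value there says little. The flanking genes tested lay 6.7 kb (Evx2) to 942 kb from their cluster, and Evx1, Evx1os, Calcoco2 and Skap1 were too dim to test. Where the line differences end near a cluster thus cannot be read from them.

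Inside the clusters 4 non-coding genes were tested. Gm38462, which spans Hoxd8 in the reference, gave 546 ± 65.8 and 1027 ± 192 (SD, n = 3) in white preadipocytes and adipocytes and 9.12 ± 7.25 and 9.62 ± 8.33 in the brown. Hoxd3os1, which overlaps the start of Hoxd3, gave 112 ± 11.2 and 241 ± 26.5 in the white groups and 1.82 ± 0.736 and 1.39 ± 0.409 in the brown. Both were thus on the white side with the HoxD genes they overlap (-4.52 and -2.84 in preadipocytes, adjusted p = 4.54e-07 and 4.12e-09, at least 13.8-fold and 2.84-fold). Hoxb5os, which overlaps Hoxb5 and Hoxb6, was higher in brown preadipocytes by 1.65 (adjusted p = 0.00104) and in brown adipocytes by 0.87 (adjusted p = 0.0306). Gm15050, within Hoxa3, was not called in preadipocytes (-0.10, adjusted p = 0.328) and was lower in brown adipocytes by 1.16 (adjusted p = 6.10e-07).

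**Figure D5:**
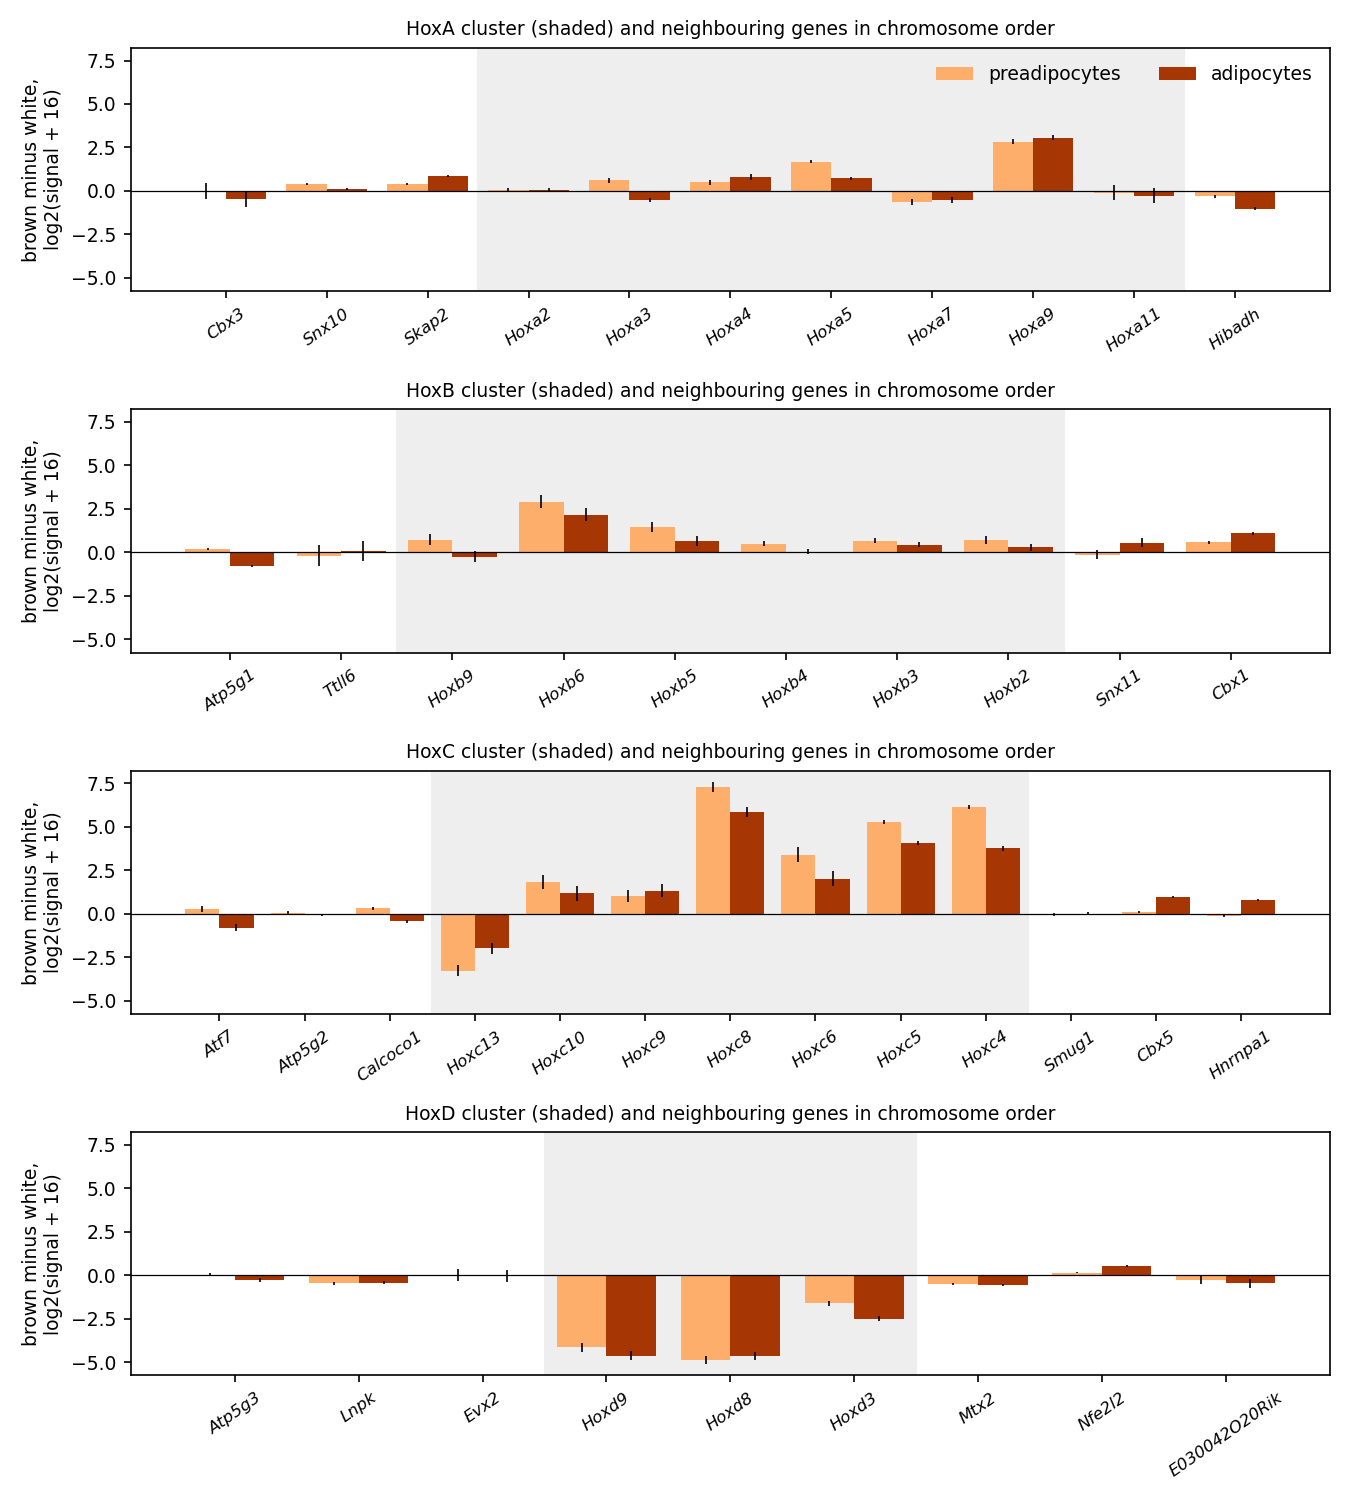
Bars are brown minus white log2 differences, as log2(signal + 16) with 1 SE, of the tested Hox genes (shaded) and their flanking genes in chromosome order, 1 panel per cluster, in preadipocytes (light) and adipocytes (dark). Bars of 2 or more in size stand inside the shaded HoxA, HoxB, HoxC and HoxD clusters alone, and flanking bars reach 1.09 at most.

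Partners and regulators of Hox genes were read from lists chosen with earlier results of these data known. TALE homeodomain cofactors bind DNA together with Hox proteins, and 8 of them were measured and tested. In white differentiation 5 fell (31.2% of all genes) and none rose (30.1%), and in brown differentiation 4 fell (31.6%) and none rose (27.2%), with a median change of -0.68 and -0.52. Meis1 went from 694 ± 11.9 to 238 ± 28.6 in the white line and from 386 ± 10.5 to 208 ± 19.3 in the brown, falls of 1.49 and 0.85 (adjusted p = 1.67e-07 and 1.59e-05). Meis2 fell by 1.57 and 1.10 (adjusted p = 1.69e-06 and 3.20e-05) and was lower in brown than in white preadipocytes by 1.37 (adjusted p = 8.14e-06).

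Pknox2 went from 423 ± 24.7 to 23.0 ± 8.01 in the brown line and from 190.2 ± 59.8 to 83.0 ± 24.8 in the white, falls of 3.51 (at least 10.8-fold) and 1.05 (adjusted p = 6.91e-07 and 0.00342) that differed by 2.46 (adjusted p = 0.000185). Pbx3 fell by 1.39 in the white line (adjusted p = 1.02e-07) and gave -0.18 in the brown (adjusted p = 0.0684), a difference of 1.20 (adjusted p = 9.04e-06). Pknox1 fell in the white line (-0.31, adjusted p = 0.00703) and Meis3 in the brown (-1.08, adjusted p = 0.0241). Pbx2 and Pbx4 were called in neither.

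All 28 measured Polycomb genes, which repress silent Hox clusters, were tested. In white differentiation 10 rose (30.1% of all genes) and 15 fell (31.2%), and in brown differentiation 7 rose (27.2%) and 8 fell (31.6%), the brown shares being near those of all genes, with medians of -0.29 and -0.06. Jarid2 rose by 2.28 and 1.41 (adjusted p = 3.79e-09 and 1.78e-07) and Phc1 fell by 1.80 and 1.46 (adjusted p = 4.67e-06 and 2.90e-05). Between preadipocytes 8 were higher in the brown line (31.3% of all genes) and 6 lower (23.8%), with Phf19 at 2.03 (adjusted p = 3.64e-06) and Jarid2 at 1.92 (adjusted p = 3.17e-08).

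Of 14 Trithorax and related activators tested, 4 rose and 9 fell in white (30.1% and 31.2% of all genes) and 6 rose and 3 fell in brown differentiation (27.2% and 31.6%). Between preadipocytes 2 were higher and 1 lower in the brown line (31.3% and 23.8%). Kdm6b, which removes the Polycomb histone mark, rose by 1.91 and 0.68 (adjusted p = 1.05e-08 and 3.19e-05). Of 10 retinoic acid genes tested among 15 measured, retinoic acid being an inducer of anterior Hox genes, 5 rose and 2 fell in white (30.1% and 31.2% of all genes) and 4 rose and 1 fell in brown differentiation (27.2% and 31.6%). Dhrs3, which lowers retinoic acid, rose by 3.26 and 1.35 (adjusted p = 1.42e-08 and 1.45e-05). Cyp26b1, which degrades it, was lower in brown than in white preadipocytes by 1.70 (adjusted p = 0.000311, at least 3.79-fold) and higher in brown adipocytes by 1.06 (adjusted p = 0.00521, at least 1.52-fold, with 2 of 3 arrays above the level). Its signal went from 149 ± 14.6 to 19.7 ± 3.34 in the white line and from 34.8 ± 3.65 to 63.9 ± 37.3 in the brown. The change of sign between the stages thus included a fall in the white line. Of the 5 Cdx and Evx genes, which neighbour or switch on Hox clusters, Evx2 alone was bright enough to test and was called in no comparison.

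The 10 Hox genes too dim to test were Hoxa10, Hoxa13, Hoxb1, Hoxb7, Hoxb13, Hoxd1, Hoxd10, Hoxd11, Hoxd12 and Hoxd13. Hoxa11 and Hoxb9 passed the filter through single arrays, were above the level on all 3 arrays of no group and were called in no comparison. Hoxb9 gave 32.4, 55.2 and 38.5 in brown preadipocytes and 13 to 27.3 in white preadipocytes, a difference of 0.72 (adjusted p = 0.0775, at least 1.23-fold). Without white adipocyte replicate 1, which gave 9.22 against 27.4 and 54.1 on the other 2, it was called in that comparison (adjusted p = 0.0186), in both differentiations and in the difference between them (-1.35, adjusted p = 0.00742). For all 12 of these genes, an effect too small to lift the signal above the 40th percentile was not detectable on these arrays.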

How the data were processed

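The authors deposited linear signal intensities of 45101 probe sets on 12 arrays. Per the submitters' processing notes, the tool was Affymetrix Expression Console. The sources used here do not give its version, its summarisation algorithm or detection calls. The trimmed mean (2% off each end) was 500.003 to 500.004 on every array, so the deposited values had been scaled to a common mean, which hides changes in total RNA per cell.

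Of the probe sets, 34958 had 1 symbol in the platform annotation, 932 several and 9211 none listed. Gene identifiers matched to the GRCm38 gene table changed no symbol. The 18193 named genes were taken as the probe set of highest mean signal, and 13752 exceeded the array's 40th percentile on at least 3 arrays (4441 did not). limma 3.58.1 (R 4.3.3) fitted 4 group means to log2(signal + 16), with 8 residual and 1.81 prior degrees of freedom, and p-values were two-sided. Python 3.11.15, scipy 1.17.1, pandas 2.3.3 and matplotlib 3.10.9 made tables, the exact permutation test and plots. The number of arrays limits the precision.

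The members, lists, tests and alternatives were chosen with earlier results of these data known. All Hox genes above the level in a group are named with values, the other Hox genes by name, and all TALE cofactors tested. Of each other list up to 4 called genes are named, not strictly those of largest change. Rxrg of the retinoic acid list, at 16.9 ± 23.0 before and 226 ± 45.5 after white differentiation, is not among them. Alternatives were quantile normalization, equal medians or hybridization-control scaling, a pseudocount of 1 or 64, a filter at the 60th percentile or none, averaging a gene's probe sets, dropping those of less specific design, an intensity trend, fits of only the arrays compared, a replicate block, and each array left out. The fit was checked on simulated data.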

Additional observations from a re-analysis of the deposited data

Results flagged for a closer look

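For 7 Hox genes the 2 lines differed in how the gene changed with differentiation, by the test of that difference in the limma fit of all genes. The change in the brown line was lower than in the white line for Hoxc4 (-2.38, adjusted p = 4.16e-06), Hoxc8 (-1.45, adjusted p = 0.0159), Hoxc5 (-1.20, adjusted p = 0.000187), Hoxa3 (-1.11, adjusted p = 0.00036), Hoxa5 (-0.94, adjusted p = 0.000147) and Hoxd3 (-0.87, adjusted p = 0.00606), as differences of log2 changes. Hoxc13 was the exception, with a change 1.28 higher in the brown line (adjusted p = 0.0301). Among all genes 51.1% were called in this test. Of the 7 calls, 1 was kept in every alternative, that of Hoxc4. Hoxc4, Hoxc5 and Hoxc8 were under the detection level in the white line, so a white change could not be seen. Hoxd3 was under it on every brown array, so a brown change could not be seen. With less specific probe sets left out, Hoxa3 gave -0.24 (adjusted p = 0.369) and Hoxa5 -0.20 (adjusted p = 0.233). With a pseudocount of 1, Hoxc13 gave 0.35 (adjusted p = 0.767). The groups of 3 arrays were too small for a test of single outlying arrays, but each array was left out in turn. The Hoxc13 call was then lost without any one of 7 arrays, and the other flagged calls were kept.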

How the results depend on the processing

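The number of Hox genes called stayed within 1.5 times of that reported, in every comparison and alternative run, other than the difference between lines in the differentiation change. There 7 were called, 3 with a pseudocount of 1 and 11 with one of 64, and the cause was not tested. With each array left out in turn the counts were 8 to 12 in white differentiation, 13 to 15 in brown differentiation, 6 to 8 for that difference, 15 to 17 between adipocytes and 18 to 21 between preadipocytes. Of 115 gene and comparison results 70 were called, and 46 of these kept their call and direction in every alternative, 14 of them between preadipocytes, 13 between adipocytes, 11 in brown and 7 in white differentiation and 1 in the difference between lines. Of 2682 alternative values 2540 kept their state, either called in the same direction or not called, 108 lost the call and 32 gained it. The 2 counted as reversed were Hoxd8 in the difference between lines (0.27, and -0.53 as the mean of its probe sets) and Hoxa3 between adipocytes (-0.51, and 0.14 with less specific probe sets left out). Changes of sign among values that stayed uncalled were not counted as reversed. An example is Hoxa9 in the difference between lines (0.22, and -1.33 at the lowest). Calls gained by leaving out 1 array, beside those in the report, were Hoxd3 without brown adipocyte replicate 1 (0.40, adjusted p = 0.046), Hoxd8 and Hoxd9 without brown preadipocyte replicate 3 (0.64 and -0.80, adjusted p = 0.0245 and 0.00494) in brown differentiation, and Hoxb5, Hoxb6 and Hoxd9 in the difference between lines, without brown adipocyte replicate 3 (-1.17, adjusted p = 0.00833), white adipocyte replicate 2 (-1.24, adjusted p = 0.0166) and brown preadipocyte replicate 3 (-0.83, adjusted p = 0.0204). Arrays of different groups with the same replicate number did not deviate together (r = -0.0292 to 0.0668 over 18 pairs, with the own number correlating best in 5 of the 18). No pairing by number was seen in the values, which cannot exclude one. With a replicate block the counts were 11, 14, 7, 18 and 20, in the order above, against 12, 14, 7, 17 and 20. Genes at or under the 40th percentile have no order among their values, and the self-chosen level of detection sets which of them count as on.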
